A study of Rattus norvegicus with 24 samples.

Results

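Uninduced INS1 cells at 24 h and at 4 h make up 6 of the 24 libraries of the series, chosen by their labels alone. INS1 cells derive from a rat insulinoma and stand in for pancreatic beta cells. All cells of the series, these included, carry a doxycycline-inducible mouse IRE1α (Ern1) transgene. The uninduced cells were given vehicle and no doxycycline and were collected at 24 h (3 libraries) or 4 h (3 libraries), the times counted for the induced cells from the addition of doxycycline. The other 18 libraries are from cells given doxycycline with vehicle, PAIR1 or KIRA9, 3 at each time for each treatment, PAIR1 and KIRA9 being compounds directed at the IRE1α kinase. Poly(A) RNA was sequenced. Whether the medium was renewed between the times, whether the line is a single clone and whether replicates are separate cultures is not stated in the labels, so the p-values reflect no more than the spread between these samples, which may be technical. In bulk RNA, fewer cells of a kind and less RNA per cell cannot be told apart.

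IRE1α spans the membrane of the endoplasmic reticulum and senses unfolded protein there. Its kinase domain switches on an RNase that splices Xbp1 mRNA, which then encodes a transcription factor for chaperone and secretory genes, and at higher activity cuts other mRNAs. Beta cells, which make and secrete large amounts of insulin, depend on this response. Without doxycycline the transgene is not meant to be transcribed, so the uninduced cells show how far the RNA profile differs between 24 h and 4 h when nothing is induced.

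The table gives counts per Ensembl gene ID, the files do not pair IDs with names, and the RefSeq gene table at hand could be matched to 0 of the 26689. The Ern1 transgene, the insulin genes and the markers that would check the label INS1 were therefore not analysed by name, and 4 IDs are printed. Library totals were 23.8, 16.2 and 17.6 M counts at 24 h and 20.7, 15.1 and 15.3 M at 4 h. A count of 0 allows up to 3 counts, which is 0.126 to 0.199 CPM (counts per 1 M counts) in these libraries, for counting error only. Replicate 2 at both times belonged to 6 libraries of the series in which 41 IDs, chosen because all 6 libraries exceeded every other, took 0.667 to 0.744% of counts. They took 0.0705 to 0.0853% elsewhere. One such library stands at each time. For the 6 induced vehicle libraries the labels give opposite times in the title and in the time characteristic. The titles are used, and with the exchange every change given for induced vehicle cells turns its sign.

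In uninduced cells 3739 of the 13760 IDs tested changed between the times, 27.2% of those tested. At 24 h 1877 IDs were higher (13.6%) and 1862 were lower (13.5%), at an adjusted p below 0.05 in edgeR's quasi-likelihood test with Benjamini-Hochberg adjustment. The changes were small. The median change among the called IDs was 0.30 on the log2 scale for those higher and -0.25 for those lower, and 1503 of the IDs that were higher and 1713 of those that were lower stayed under 1.5-fold. At least 2-fold changes were made by 132 IDs that were higher (0.959% of those tested) and 49 that were lower (0.356%). The values of the 3 libraries at 24 h lay wholly above those at 4 h in 1686 of the IDs called higher, and wholly below in 1710 of those called lower. Over all tested IDs, called or not, this was so in 2394 (17.4%) and 2522 (18.3%). With only the 6 uninduced libraries in the fit, 1205 IDs were higher and 1014 lower. With the 6 libraries of the 41-ID block left out of the fit, 1072 were higher and 1115 lower, and with both uninduced libraries numbered 2 left out, 1261 and 1177.

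**Figure D1:**
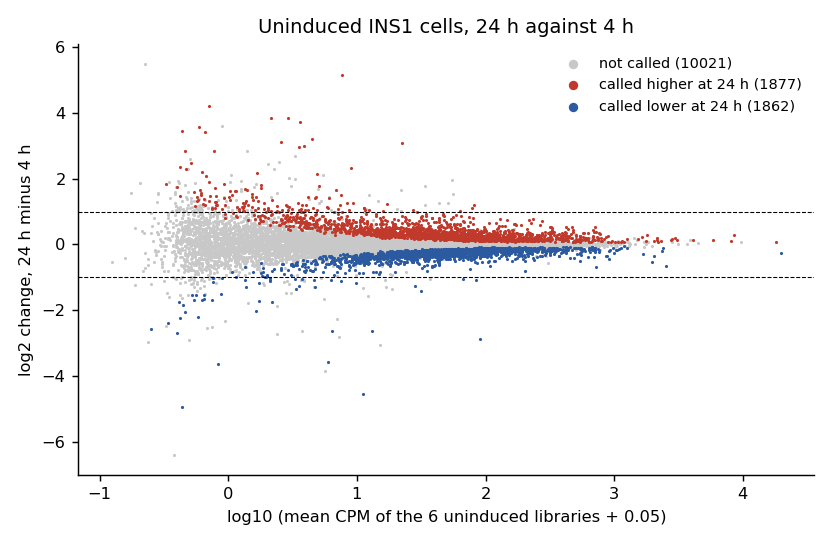
Each point is 1 tested ID in uninduced cells, with its mean level on the x axis (log10 of CPM plus 0.05, 6 libraries) and its log2 change, 24 h minus 4 h, on the y axis. Dashed lines mark 2-fold; the 1877 IDs called higher and 1862 called lower lie mostly inside them, and at 1000 CPM and over all of them do.

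How many IDs were called, and how far the called IDs moved, varied with their level. Among the 2237 IDs at 100 to 1000 CPM (mean over the 24 libraries) 41.7% were called, and among the 68 at 1000 CPM and over 52.9%. Among the 1061 under 1 CPM 6.5% were called. Calls of at least 2-fold ran the other way: they were 65 of the IDs called under 1 CPM (94.2%), 102 of those at 1 to 10 CPM (20.8%), 14 of those at 10 to 100 CPM (0.633%) and 0 of those at 100 CPM and over. Low counts make calls harder, and only large changes can be called there. These shares therefore do not compare the sizes of change over all tested IDs. Rises outnumbered falls at low levels, 48 against 21 under 1 CPM and 324 against 167 at 1 to 10 CPM. Library totals were larger at 24 h than at 4 h for each replicate number. Whether depth had a part in these numbers was not tested. Falls outnumbered rises at 10 to 100 CPM, 1176 against 1034.

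**Figure D2:**
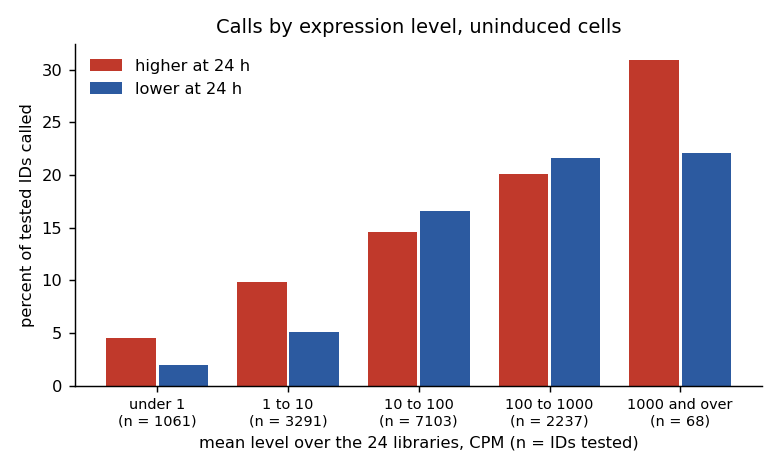
Bars give the percent of tested IDs called higher (red) or lower (blue) at 24 h than at 4 h in uninduced cells, by mean level over the 24 libraries in CPM. The share called runs from 6.5% under 1 CPM to 52.9% at 1000 CPM and over.

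Small changes of abundant IDs moved a visible part of the RNA pool. The IDs called higher took 26.3, 26.2 and 26.3% of counts in the 24 h libraries, against 22.9, 22.6 and 22.9% in the 4 h libraries. The IDs called lower took 18.6, 18.8 and 19.0% at 24 h, against 22.0, 22.1 and 22.3% at 4 h. Neither pair of ranges overlaps, which follows from how the IDs were chosen. Summed over all tested IDs, the difference between the group means came to 4.78% of counts. Between single libraries the same sum was 5.19 to 6.13% across the times, 2.51 to 4.43% between replicates at 24 h and 2.56 to 2.96% between replicates at 4 h, so part of it is replicate spread. The IDs that were at least 2-fold higher held only 0.0843 to 0.0975% of counts at 24 h and 0.0350 to 0.0368% at 4 h. The 100 most abundant IDs took 20.4 to 20.8% of counts at 24 h and 20.4 to 21.0% at 4 h, ranges that overlap, while 30 of them were called higher and 23 lower (13.6 and 13.5% of all tested IDs, and 52.9% in either direction at 1000 CPM and over).

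The IDs with the largest changes at high levels were singled out after their values were seen, and are given by level without their ID. Among the 68 IDs at 1000 CPM and over, the largest fall was to 2022, 1922 and 1900 CPM at 24 h, against 2985, 3147 and 3141 CPM at 4 h. The libraries of the times stood far apart. The log2 change was -0.67 ± 0.02 (SE; adjusted p = 7.58e-15, edgeR). The other cells differed in the size of this fall. In induced vehicle cells it stood at 3099 ± 61 CPM at 24 h and 3052 ± 26 at 4 h (SD, n = 3 each), and was not called. With PAIR1 it stood at 3342 ± 37 CPM at 24 h and 6065 ± 60 at 4 h, and with KIRA9 at 3313 ± 74 and 9593 ± 135, falls of -0.86 and -1.53 (adjusted p of 3.18e-18 and 2.17e-22 in edgeR's test). At 24 h the uninduced cells held the lowest level of the 4 treatments, 1948 ± 65 CPM. Its change with time differed from that in uninduced cells by 0.69 ± 0.03 in induced vehicle cells (adjusted p = 1.85e-14), -0.19 ± 0.03 with PAIR1 (9.24e-05) and -0.87 ± 0.03 with KIRA9 (2.18e-14), all in edgeR's test.

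Among the 2305 IDs at 100 CPM and over the largest fall was to 148, 142 and 148 CPM at 24 h, against 244, 263 and 263 CPM at 4 h. It amounted to -0.81 ± 0.04 (SE, log2; adjusted p = 4.71e-13, edgeR), or 1.76-fold. This ID fell in every treatment, and further in each of the others, by -1.90 in induced vehicle, -1.83 in PAIR1 and -1.87 in KIRA9 cells. At 24 h it stood at 66.3 ± 1.9 CPM in induced vehicle, 144 ± 6.4 in PAIR1, 214 ± 5.5 in KIRA9 and 146 ± 3.5 in uninduced cells (SD, n = 3 each). At 4 h it stood at 247 ± 1.1, 512 ± 7.8, 787 ± 19 and 257 ± 11 CPM in the same order. The larger falls with PAIR1 and KIRA9 thus started from higher 4 h levels, and only induced vehicle cells ended well below uninduced cells. The differences from the uninduced change were -1.09, -1.02 and -1.06 (SE 0.05 each, adjusted p of 2.18e-14, 5.27e-13 and 1.34e-12 in edgeR's test).

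The largest rise at 100 CPM and over was to 387, 245 and 260 CPM at 24 h, against 165, 177 and 181 CPM at 4 h. Replicate 1 at 24 h was well above the other libraries, and the other replicates at 24 h were also above all at 4 h. The log2 change was 0.77 ± 0.10 (SE, adjusted p = 6.71e-06, edgeR), and ran from 0.53 to 0.91 over all alternatives tried. None of the other treatments showed the rise: this ID stood at 167 ± 8.6 CPM at 24 h and 179 ± 0.78 at 4 h in induced vehicle cells, at 153 ± 5.9 and 166 ± 5.8 with PAIR1 and at 147 ± 9.0 and 167 ± 1.4 with KIRA9. The change differed from that in uninduced cells by -0.87, -0.89 and -0.96 (adjusted p of 2.33e-05, 8.22e-05 and 5.6e-05 in edgeR's test). At 1000 CPM and over the largest rise was to 1854, 1977 and 2048 CPM at 24 h, against 1561, 1668 and 1604 CPM at 4 h, by 0.28 ± 0.03 (adjusted p = 4.33e-07, edgeR). This ID also rose in induced vehicle (0.41), PAIR1 (0.31) and KIRA9 cells (0.36).

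The largest fold changes of all were examined next. Called IDs were ranked by size where the times did not overlap and the higher one averaged 5 CPM or more. The first 10 rises and the first 10 falls ran from 1.27 to 3.85 and from -1.09 to -4.56 on the log2 scale. Of these 20 IDs, 7 that rose and 8 that fell stayed called under every alternative tried at the same threshold, and the rest lost the call under at least 1. Among all 54 calls of at least 2-fold with 5 CPM in the higher group, 13 (24.1%) had libraries of 1 uninduced group over 4-fold apart, with 0.5 CPM added to each value. Without the limit on level it was 8.29% of the 181 calls of at least 2-fold and 1.24% of all tested IDs.

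ENSRNOG00000042249 had the largest rise by this rule. It had 5.12, 7.61 and 3.43 CPM at 24 h, against 0.625, 0 and 0.399 CPM at 4 h. Every library at 24 h was above every one at 4 h, which the rule required, and the 4 h counts were 13, 0 and 6. The log2 change was 3.85 ± 0.71 (SE, adjusted p = 0.000332, edgeR). It also rose in induced vehicle cells (2.30, adjusted p = 0.00306), with PAIR1 (1.95, 0.0192) and with KIRA9 (2.18, 0.0234), and no difference from the uninduced change was called. Replicates at 4 h were far apart with both compounds, at 0.133, 0.398 and 2.41 CPM with PAIR1 and 0.545, 0.996 and 0.119 CPM with KIRA9.

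ENSRNOG00000047950, the other ID that rose, had 36.9, 3.83 and 4.07 CPM at 24 h, against 3.46, 3.02 and 2.60 CPM at 4 h. Only replicate 1 at 24 h stood apart. The log2 change of 2.31 ± 0.75 (adjusted p = 0.0252, edgeR) was 0.38 without that library (adjusted p = 0.715). Over the alternatives the adjusted p ran up to that value, and the call was also lost with only the 6 libraries in the fit and without any 1 of the 4 h libraries.

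ENSRNOG00000045686 had the largest fall. It had 1.06, 0.691 and 0.930 CPM at 24 h, against 33.2, 1.54 and 29.8 CPM at 4 h. Replicate 2 at 4 h was near the 24 h level. The log2 change of -4.56 ± 1.58 reached an adjusted p of 0.0352 in edgeR's test and 0.0525 with the replicate block, and without any 1 of 5 of the 6 libraries it was 0.0745 to 0.0992. Single libraries elsewhere were as high, with a highest value of 32.8 CPM in induced vehicle cells at 24 h and 32.0 CPM with KIRA9 at 4 h.

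ENSRNOG00000048608 had 7.70, 0.943 and 1.63 CPM at 24 h, against 21.2, 21.4 and 25.2 CPM at 4 h. The times did not overlap, which the rule required, but the 24 h libraries were over 8-fold apart. The log2 change was -2.64 ± 0.78 (adjusted p = 0.014, edgeR). The call was lost without replicate 2 or without replicate 3 at 24 h (adjusted p = 0.0639 and 0.0643), without both libraries numbered 2 (0.093) and without the 6 libraries of the 41-ID block (0.0623). With PAIR1 it moved the other way, by 2.18 (adjusted p = 0.0476), and libraries of 1 group were also far apart there, at 2.17 to 17.0 CPM at 24 h.

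**Figure D3:**
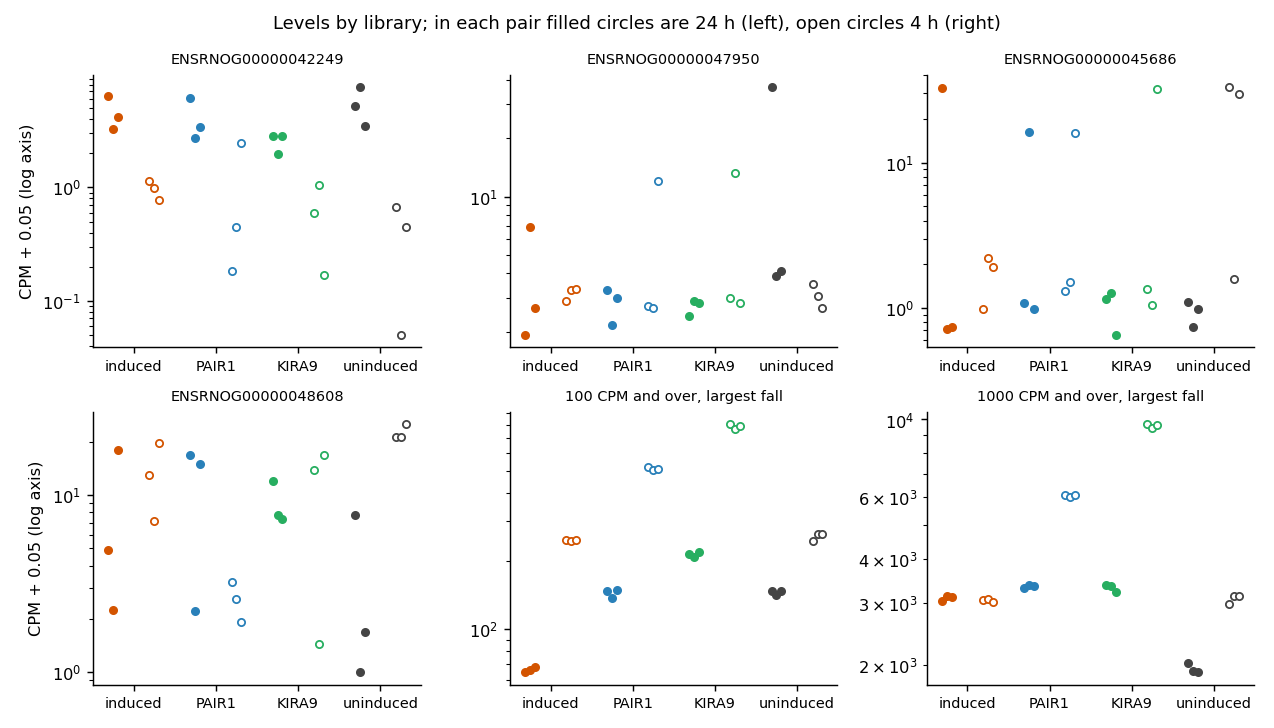
Each circle is 1 library, with its level in CPM plus 0.05 on a log axis, for the 4 printed IDs and for the IDs with the largest fall at 100 and at 1000 CPM and over. Filled circles are 24 h and open circles 4 h. Replicates of each of the 4 printed IDs lie far apart in some groups. Those of the 2 abundant IDs lie close together in every group.

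Of the 15 that stayed called, 3 more follow, chosen after their values were seen. The fall of rank 6 was to 15.9, 16.9 and 17.7 CPM at 24 h, against 40.8, 40.2 and 39.3 CPM at 4 h, a log2 change of -1.25 ± 0.07 (adjusted p = 1.87e-11, edgeR). It also fell in induced vehicle (-0.41), PAIR1 (-1.03) and KIRA9 cells (-1.07). The fall of rank 4 was to 23.3, 13.2 and 14.7 CPM at 24 h, against 48.9, 46.4 and 43.8 CPM at 4 h, and was called in every other treatment too. The rise of rank 10 was to 14.7, 12.6 and 11.9 CPM at 24 h, against 5.72, 5.44 and 5.06 CPM at 4 h, by 1.27 ± 0.14 (adjusted p = 9.05e-07, edgeR), and was likewise called in all 4 treatments. The groups of these 3 IDs lay clearly apart, which follows in part from how they were chosen. The rise of rank 8 and the falls of ranks 3 and 8 also stayed called, but were called in no other treatment, which by itself is no test of a difference. The fall of rank 3 was from 15.2, 14.8 and 2.60 CPM at 4 h to 1.48, 1.82 and 2.04 CPM at 24 h. The fall of rank 8 was to 5.46, 6.41 and 2.27 CPM at 24 h. Over the alternatives the adjusted p of these 2 falls ran up to 0.0465 and 0.0443 (edgeR or DESeq2). The rise of rank 3 did not stay called, and was called lower with KIRA9 (-2.41, adjusted p = 0.013, edgeR). Of the 10 rises, 5 were called higher in induced vehicle, 6 in PAIR1 and 3 in KIRA9 cells (30.2, 16.9 and 15.7% of all tested IDs). Of the 10 falls 5, 6 and 6 were called lower (32.2, 17.4 and 13.9% of all tested IDs).

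The time contrasts of the other treatments share no library with the uninduced one. Of all tested IDs they called 62.4% in induced vehicle, 34.3% in PAIR1 and 29.6% in KIRA9 cells. With KIRA9, 939 of the 1877 IDs that rose in uninduced cells were called higher at 24 h, whereas 15.7% of all tested IDs were. With PAIR1 it was 919 (49.0%, background 16.9%) and in induced vehicle cells 846 (45.1%, background 30.2%). Of the 1862 that fell, 793 were called lower with KIRA9 (42.6%, background 13.9%), 862 with PAIR1 (46.3%, background 17.4%) and 941 in induced vehicle cells (50.5%, background 32.2%). As a share of the other treatment's own calls, the IDs shared with uninduced cells were 43.4% of rises and 41.6% of falls with KIRA9, 39.4 and 36.0% with PAIR1, and 20.4 and 21.3% in induced vehicle cells.

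Calls in the opposite direction were also counted. Of the IDs that rose in uninduced cells, 578 were called lower at 24 h in induced vehicle cells (30.8%), about the 32.2% of all IDs called lower there. With PAIR1 it was 165 (8.79%, background 17.4%) and with KIRA9 76 (4.05%, background 13.9%). Of those that fell, 477 were called higher in induced vehicle cells (25.6%, background 30.2%), 208 with PAIR1 (11.2%, background 16.9%) and 190 with KIRA9 (10.2%, background 15.7%). In induced vehicle cells these shares were near or below those of all tested IDs, and with PAIR1 and KIRA9 they were below them. Over the 3739 called IDs, which are not independent replicates, Pearson's r between the changes was 0.25 for induced vehicle, 0.47 for PAIR1 and 0.53 for KIRA9 cells. Over all 13760 it was 0.16, 0.26 and 0.30 in the same order. All these contrasts come from 1 fit and 1 scaling. With the time characteristic in place of the title, r for induced vehicle cells was -0.25 over the called IDs and -0.16 over all, 578 of the rises and 477 of the falls recurred there, and 846 and 941 were opposite.

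**Figure D4:**
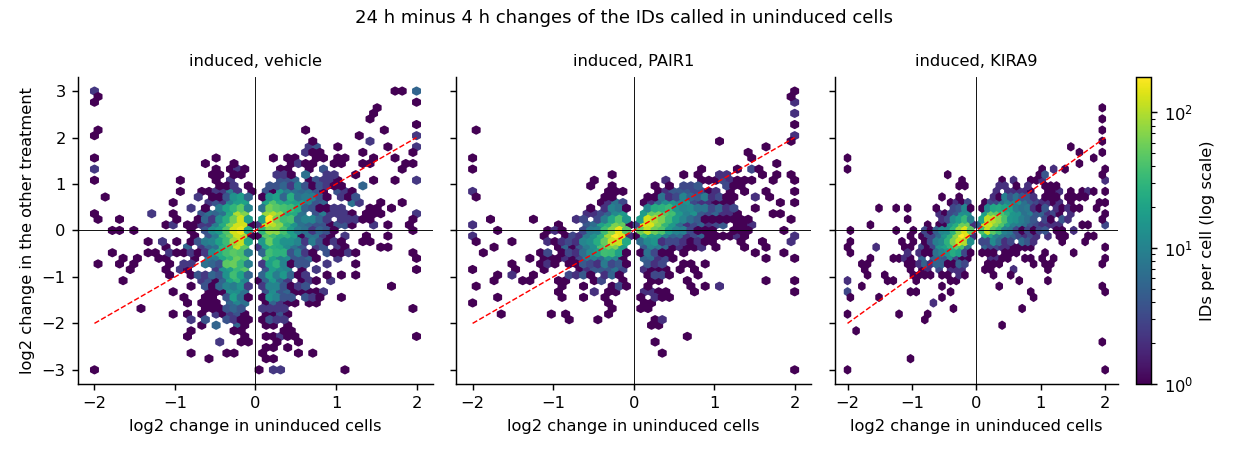
The 3739 IDs called in uninduced cells, binned by their log2 change, 24 h minus 4 h, in uninduced cells (x axis) and in 1 other treatment (y axis), values beyond the axes set to the edge. The dashed line marks equal change. The cloud leans the same way but is flatter for PAIR1 (r = 0.47, slope of a fitted line 0.38) and KIRA9 (r = 0.53, slope 0.36). It spreads up and down for induced vehicle cells (r = 0.25, slope 0.34). Over all tested IDs r was 0.26, 0.30 and 0.16 in the same order.

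The difference between the changes was tested directly for all 13760 IDs. The change with time differed from that in uninduced cells in 6918 IDs in induced vehicle cells (50.3%), 2214 with PAIR1 (16.1%) and 1499 with KIRA9 (10.9%), in edgeR's test of the interaction. Among all tested IDs it was more positive than in uninduced cells in 22.5, 7.47 and 6.47% and more negative in 27.8, 8.62 and 4.43%, in the same order of treatments. With the exchanged time label it was 7872 for induced vehicle cells. These 3 tests share the uninduced libraries. Among the IDs that rose in uninduced cells the difference was called in 1128 for induced vehicle, 485 for PAIR1 and 361 for KIRA9 cells, and was negative in 866, 437 and 304 of them. Among those that fell it was called in 1319, 596 and 491, and was positive in 773, 474 and 443. The uninduced libraries both chose these IDs and enter the difference, which favours smaller changes elsewhere, so these directions are a description.

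The IDs that moved the same way in all 4 treatments numbered 454 higher and 424 lower, 24.2% and 22.8% of the uninduced calls. Of all tested IDs 932 (6.77%) were called higher and 846 (6.15%) lower in all 3 induced treatments. With the exchanged time label only 107 and 47 moved the same way in all 4. The median change of the 454 was 0.45 in induced vehicle, 0.35 in PAIR1, 0.31 in KIRA9 and 0.30 in uninduced cells. For the 424 it was -0.69, -0.39, -0.29 and -0.28. In 173 of the 454 the induced vehicle change was called larger than the uninduced one and in 28 smaller, and in 264 of the 424 it was called deeper and in 12 shallower. Over all tested IDs it was called more positive in 22.5% and more negative in 27.8%. Both contrasts chose these IDs and enter the difference, so these counts and medians are a description. In uninduced cells 15 of the 454 and 7 of the 424 reached 2-fold, against 132 of all 1877 rises and 49 of all 1862 falls called there. A further 386 IDs were called higher and 377 lower in all 3 induced treatments and not in uninduced cells, and 517 and 547 uninduced calls were made in that direction in none of the 3, which by itself is no test that they differ.

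A time score was then computed for each library from IDs chosen by their PAIR1 and KIRA9 calls, in the fit over all 24 libraries. It is the mean log2 CPM of the 1397 IDs called higher at 24 h with both PAIR1 and KIRA9 minus that of the 1131 called lower with both. The uninduced libraries scored 0.47, 0.56 and 0.56 at 24 h, against 0.15, 0.16 and 0.16 at 4 h. The times did not overlap, and replicate 1 at 24 h was the lowest of its group. The difference was 0.37 (exact two-sided permutation p = 0.1, the smallest that 3 against 3 libraries allow). Induced vehicle libraries scored 1.19 ± 0.0052 at 24 h and 0.21 ± 0.02 at 4 h (SD, n = 3 each), a difference of 0.98, or -0.98 with the exchanged time label. With IDs from a fit of the 12 PAIR1 and KIRA9 libraries alone, 1441 higher and 1194 lower, the uninduced difference was 0.36. Of the 1397 IDs, 672 were called higher in uninduced cells (48.1%, background 13.6%) and 133 lower (9.52%, background 13.5%). Of the 1131, 579 were called lower (51.2%, background 13.5%) and 48 higher (4.24%, background 13.6%).

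**Figure D5:**
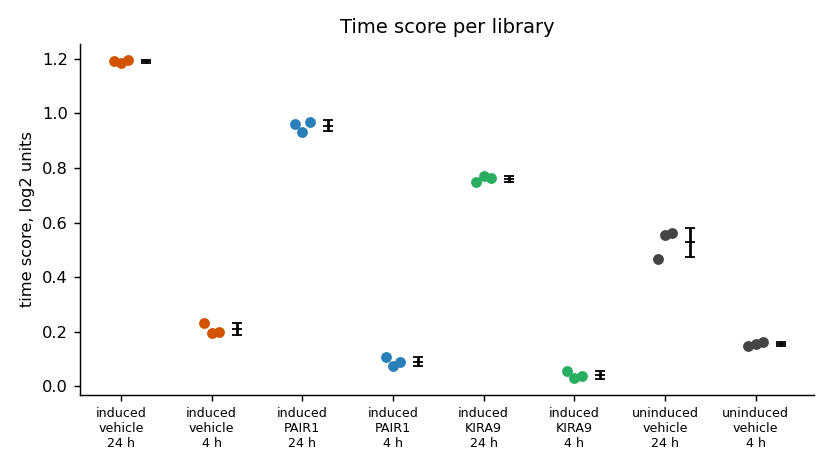
Points are the time score of single libraries in log2 units, by treatment and time, with the mean and SD of each group of 3 beside them. Uninduced libraries at 24 h (0.47 to 0.56) lie above those at 4 h (0.15 to 0.16) and below the induced vehicle libraries at 24 h; the IDs were chosen on the PAIR1 and KIRA9 contrasts, so those groups are not read.

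The distances between single libraries overlapped within and between the times. The root mean square difference in log2 CPM over the tested IDs was 0.41 to 0.47 between replicates at 24 h, 0.38 to 0.46 between replicates at 4 h and 0.44 to 0.53 between the times. The nearest library at the other time was in each case the one with the same replicate number, at 0.44, 0.48 and 0.46. Between replicates, chi-square divided by its degrees of freedom was 10.5 to 19.1 at 24 h and 4.61 to 12.3 at 4 h, so no pair agreed within sampling noise. Between the times it was 13.0 to 26.7, which overlaps the range between replicates at 24 h.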

How the data were processed

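The authors deposited a table of raw read counts per Ensembl rat gene ID for 24 poly(A) libraries, without normalization. NEBNext Ultra II kits were used, per the labels' protocols, and HISAT2 and HTSeq are named without a version, per the submitters' processing notes. Strand setting, build and annotation are not given in the sources used here. Reads of overlapping or near-identical genes may therefore be mixed. Of the 26689 IDs, 13760 passed filterByExpr (minimum count 10, 8 groups). Counts were scaled by TMM and tested with edgeR 4.0.16 in R 4.3.3 by its quasi-likelihood test, with 8 group means over all 24 libraries and no replicate block, and adjusted by Benjamini-Hochberg over all IDs tested. IDs were called at an adjusted p below 0.05. Levels are TMM-scaled CPM, the SD is over 3 libraries and the SE is of the log2 change.

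Groups come from the sample titles. For the 6 induced vehicle libraries the time characteristic contradicts the title, and the direction of every induced vehicle result rests on the title. The exchange was tried as an alternative. Same-numbered uninduced libraries deviated together from their group means (r = 0.14, 0.30 and 0.18 for the 3 pairs), so the numbers were taken to pair them. The reported calls, SEs and the permutation of the time score leave this pairing out. Only the replicate block uses it. DESeq2 1.42.0, RLE size factors, no filter, the replicate block, a stricter threshold and left-out libraries were the alternatives. The 4 printed IDs follow a rule: the 2 largest changes per direction among called IDs whose times did not overlap and whose higher time averaged 5 CPM or more. Its conditions on gene symbols, and 34 gene lists, could not be applied without names. The comparison, lists and rules were chosen with earlier results of these data known. The procedure was tested on simulated data.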

Additional observations from a re-analysis of the deposited data

Results flagged for a closer look

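The 24 h against 4 h change is given here because its size differed between treatments by the interaction test. It differed from uninduced cells in 6918 IDs in induced vehicle, 2214 in PAIR1 and 1499 in KIRA9 cells. Single IDs are listed for the same reason, with values in log2 units as the treatment's change minus the uninduced change. ENSRNOG00000047950 differed by -3.39 with PAIR1 (adjusted p = 0.0336 in edgeR's test) and -3.55 with KIRA9 (0.0346), and ENSRNOG00000045686 by 7.42 in induced vehicle cells (0.00634). ENSRNOG00000048608 differed by 4.82 with PAIR1 (adjusted p = 0.0041, edgeR). Each library of the compared groups was left out in turn, a step added after the data had been examined. Without uninduced 24 h replicate 1 the differences of ENSRNOG00000047950 were -1.45 with PAIR1 and -1.62 with KIRA9 (adjusted p of 0.298 and 0.275, edgeR), and 4 of 12 such fits kept each call. The other fits that lost it are those without any 1 uninduced library at 4 h or any 1 PAIR1 or KIRA9 library at 24 h, and those without PAIR1 4 h replicate 3 (-2.24) or KIRA9 4 h replicate 2 (-2.41). The difference of ENSRNOG00000045686 was 3.31 without induced vehicle 24 h replicate 1 (0.309) and stayed called in the other 11 fits, and that of ENSRNOG00000048608 was 4.41 to 6.30, called in all 12. With the exchanged time label the difference of ENSRNOG00000045686 was 1.71 (adjusted p = 0.529, edgeR). The ID with the largest rise at 100 CPM and over differed by -0.87 in induced vehicle, -0.89 in PAIR1 and -0.96 in KIRA9 cells. The ID with the largest fall at that level differed by -1.09, -1.02 and -1.06, the induced vehicle value being 2.71 with the exchanged time label. At 1000 CPM and over, the ID with the largest rise differed by 0.13 in induced vehicle cells (adjusted p = 0.0173, edgeR; called in 10 of the 12 left-out fits, and lost at 0.0865 without uninduced 24 h replicate 1 and 0.0992 without uninduced 4 h replicate 2; -0.69 with the exchanged time label), and the ID with the largest fall by 0.69 in induced vehicle, -0.19 in PAIR1 and -0.87 in KIRA9 cells.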

How the results depend on the processing

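With only the compared libraries in the fit 1205 IDs were higher and 1014 lower, 30 of them at least 2-fold lower. At an adjusted p below 0.01 it was 1169 and 1109, with 77 and 27 at least 2-fold, and 1447 interactions for PAIR1 and 862 for KIRA9. Leaving out both uninduced libraries numbered 2 left 1177 lower, and leaving out the 6 libraries of the 41-ID block, which leaves induced vehicle cells at 24 h with 1 library assumed to vary like the others, gave 1072 and 1115. The cause was not tested, beyond the stricter threshold and the fewer libraries that these settings are made of. Leaving out 1 uninduced library gave 1513 to 1979 higher and 1462 to 1879 lower, and no ID was called in opposite directions under any setting. The other 93 counts over all settings stayed within 1.5 times of those reported. With the replicate block 1889 IDs were higher and 1861 lower. The block ended the uninduced call of ENSRNOG00000045686. It changed no other uninduced call of a printed ID, of the largest changes at 100 and 1000 CPM and over, or of the IDs whose levels are given by rank. The largest changes at 10 CPM and over and the interactions of single IDs were not examined with the block. DESeq2 gave ENSRNOG00000047950 no adjusted p. The time score difference was 0.35 to 0.40, and could not be computed with only the compared libraries, since its IDs come from the others. Depth limits what can be seen at low levels, where 3 counts are up to 0.199 CPM.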

Other observations

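Among IDs at 10 CPM and over, picked after their values were seen, the largest rise was to 19.2, 23.6 and 29.0 CPM at 24 h, against 9.81 to 10.5 CPM at 4 h, with no overlap. The largest fall was to 24.5, 25.7 and 14.8 CPM at 24 h, against 25.5, 225 and 225 CPM at 4 h, where replicate 1 at 4 h lay within the 24 h range.

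In uninduced cells 64 IDs had no count in any 4 h library and at least 1 count in all 24 h libraries, with at most 15 counts in a library. The reverse held for 20 IDs, with at most 6 counts. These numbers of IDs were not adjusted for library totals, which were larger at 24 h for each replicate number. The number of IDs with a count was 16789, 16175 and 16213 at 24 h and 16491, 15897 and 15879 at 4 h. After thinning each library to 15107570 counts, a step added after the data had been examined, 16317, 16108 and 16070 were expected at 24 h and 16181, 15897 and 15868 at 4 h. The ranges of the times overlapped both before and after thinning. In every pair of the same replicate number the 24 h library was above the 4 h library, before and after thinning. This difference was not tested.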
